A study of Mus musculus with 3 samples.

Results

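Haem is made from glycine and succinyl-CoA in a chain of enzymes that begins and ends in mitochondria, and iron for its last step enters most cells through the transferrin receptor. The chain is best known from red cell precursors, which make haem for haemoglobin, but every cell with mitochondria needs it for cytochromes and other haem proteins. A pair of isoenzymes opens the chain. Alas1 encodes 5-aminolevulinate synthase of all tissues, which haem itself represses, and Alas2 encodes the synthase of the erythroid lineage, which iron and erythroid factors govern.

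The genes described here are Alas1, Alas2, Alad, Uros, Urod, Cpox, Ppox and Fech of the haem pathway together with Tfrc, the transferrin receptor gene. They were chosen by name, with earlier results of these data known, and all 9 were found among the 24421 gene symbols measured. RNA came from hematopoietic stem and progenitor cells (HSPCs) of C57BL/6 mouse bone marrow, sorted as lineage-negative cells carrying c-Kit and Sca-1. The group is the study's control, labelled Cicflox/flox + tamoxifen, that is, mice with both alleles of Capicua, a transcriptional repressor, flanked by loxP sites and given tamoxifen. The labels of these controls spell out no Cre transgene, age or sex. Their titles read UCK control, and the labels do not explain the abbreviation UCK. The 3 libraries, numbered by their replicate labels, are the only group analysed here, so every value below is a level in control cells and no genotypes are compared. The labels do not tie each library to an animal of its own, and the spread between libraries, which any p-value rests on, may be technical.

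Libraries 1, 2 and 3 held 30718562, 25097769 and 30032593 gene counts. Values are CPM, counts per 1000000 gene counts of the library, as mean ± SD over the 3 libraries unless a library is named. All 8 HSPC marker genes were above 1 CPM, with Kit at 826 ± 71.0 CPM, Hlf at 679 ± 110.2 CPM, Cd34 at 425 ± 9.06 CPM and Slamf1 at 11.8 ± 1.91 CPM. So were 53.1% of all gene symbols and all 6 neutrophil markers, so passing 1 CPM does not test the labelled cell type. The median of the 8 was 307 CPM, against 25.9 CPM for all genes of at least 1 CPM. The libraries differed in a few ways. Rn45s, the ribosomal RNA precursor, took 11.8% of the gene counts of library 1, against 8.20% and 7.91% in libraries 2 and 3. The 6 neutrophil markers summed to 179, 44.0 and 98.9 CPM in libraries 1, 2 and 3, and the 12 measured mature erythroid markers to 51.5, 104 and 149.8 CPM, of which Car1 alone gave 16.2, 61.6 and 98.6 CPM. Of the 7 erythroid markers at 1 CPM or more, 5 were lowest in library 1, against 44.3% of all genes at that level. Slc4a1 was highest there, at 13.2, 1.43 and 2.46 CPM in libraries 1, 2 and 3, and 5 haemoglobin genes had 0 counts. In bulk RNA, fewer cells of a type and less RNA per cell cannot be told apart.

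**Figure D1:**
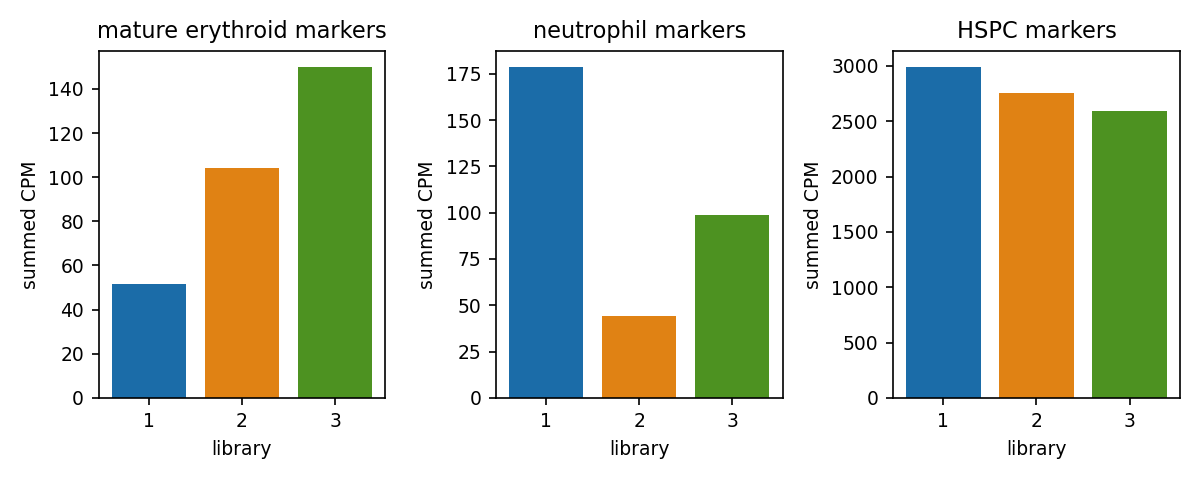
Summed CPM (bars, from 0) of the mature erythroid, neutrophil and HSPC marker genes in each of the 3 control libraries. Library 1 had the lowest erythroid sum, 51.5 CPM, and the highest neutrophil sum, 179 CPM, while most of the erythroid difference was Car1, without which the sums were 35.3, 42.7 and 51.2 CPM, and the HSPC sums lay between 2596 and 2987 CPM.

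Iron acts on transcripts of this pathway through the iron-responsive element, a short hairpin in untranslated RNA whose loop binds iron regulatory proteins. In the 5′ untranslated region such a hairpin blocks translation, and in the 3′ untranslated region it protects the transcript from decay, when iron is scarce. A search of GENCODE M21 transcripts (GRCm38) for the loop CAGTGN between 2 arms of 5 bases that pair, G-T pairs allowed, after an unpaired C found it in the 5′ untranslated region of 31 of 21951 protein-coding genes (0.141%) and in the 3′ untranslated region of 144 (0.656%). Among the 9 genes, Alas2 had an element in its 5′ region and Tfrc had 4 in its 3′ region. Of the related genes listed for iron and haem, Fth1, Ftl1 and Slc40a1 had it in their 5′ region. The search misses any element that departs from this pattern, so a gene may hold elements that were not found. The elements of both members are shown because iron is known to act on Alas2 translation and Tfrc RNA decay through them, with the 6 loop bases in capitals. A match is a description of the letters, and no binding was measured. The loop and arms of the Alas2 element lie in its first exon (chrX:150547464-150547480, plus strand), and the printed bases beyond them run across the exon junction to chrX:150552149, and the Tfrc elements follow each other in a single exon on the plus strand, at chr16:32631219-32631247, chr16:32631598-32631626, chr16:32631663-32631691 and chr16:32631710-32631738.
Alas2: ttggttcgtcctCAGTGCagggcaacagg
Tfrc, element 1: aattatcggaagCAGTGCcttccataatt
Tfrc, element 2: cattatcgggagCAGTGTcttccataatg
Tfrc, element 3: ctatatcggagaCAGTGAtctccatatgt
Tfrc, element 4: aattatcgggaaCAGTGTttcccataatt

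The start regions of the isoenzyme genes also differed in their letters. RefSeq promoter windows (GRCm38.p6, 250 bases before to 50 after a start site) were searched on both strands for the GATA motif (AGATAA or TGATAA), the CACCC motif (CCACCC), the motif of nuclear respiratory factor 1 and the E-box (CACGTG). The Alas2 window held 1 GATA match and 3 CACCC matches, neighbours among the CACCC matches sharing a base, and no match of the other kinds. The overlapping windows of Alas1 shared 2 matches to the nuclear respiratory factor motif and held no GATA match, and the upstream window of the pair also held 1 CACCC match, so the CACCC motif was found in both synthase genes. Over all 32851 windows, 18.6% held the GATA motif, 31.5% CACCC, 4.60% the nuclear respiratory factor motif and 7.15% the E-box. The E-box was found in windows of Alad, Urod and Uros, the GATA motif in Cpox and in 1 of 2 Uros windows, CACCC also in both Tfrc windows, the nuclear respiratory factor motif in 1 of 2 Uros windows, and none of the 4 in Ppox. The sequences below show the matches of the 2 synthase genes in capitals, because these genes are compared directly in what follows. For Alas2 they are the 208 window bases before its first annotated exon (chrX:150547167-150547374, plus strand), with the GATA match on the opposite strand, and the CACCC matches just inside that exon (chrX:150547372-150547397). For Alas1 they are the 2 factor sites and the CACCC match with 5 bases on each side (chr9:106247940-106247959 and chr9:106247911-106247930 for the factor sites, chr9:106248172-106248187 for CACCC, minus strand), which lie within an exon of an Alas1 transcript.
Alas2, before the first exon: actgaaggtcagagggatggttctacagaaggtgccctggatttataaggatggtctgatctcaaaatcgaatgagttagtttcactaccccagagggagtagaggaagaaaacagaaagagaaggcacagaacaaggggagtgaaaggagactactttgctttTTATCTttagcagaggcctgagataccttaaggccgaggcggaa
Alas2, CACCC matches: gaaggGGGTGGGGTGGGGTGGgcggg
Alas1, site 1: ggcgcGCGCGTGCGCgcggc
Alas1, site 2: ccaagGCGCATGCGCggcgg
Alas1, CACCC match: ttcccGGGTGGggttg

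All 9 genes were expressed in every library, and each had a mean above 1 CPM, as did 53.1% of all gene symbols. Their median mean level was 29.2 CPM, against 25.9 CPM for the 12965 genes of at least 1 CPM. The 8 enzyme genes together took 198, 206 and 225 CPM in libraries 1, 2 and 3 (209.7 ± 13.5 CPM, SD, n = 3).

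Both synthases that open the pathway were expressed, and per length Alas1 lay above Alas2 in each library. Alas1 (chromosome 9, 106233455 to 106248654, ENSMUSG00000032786.16) had 1001, 1175 and 1571 counts, which made 32.6, 46.8 and 52.3 CPM in libraries 1, 2 and 3, with a mean of 43.9 ± 10.2 CPM. Alas2 (chromosome X, 150547375 to 150570638, ENSMUSG00000025270.13) had 282, 375 and 297 counts, or 9.18, 14.9 and 9.89 CPM, with a mean of 11.3 ± 3.14 CPM. Library 1 was lowest for both, while Alas1 was highest in library 3 and Alas2 in library 2.

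Alas1 was counted 3.55, 3.13 and 5.29 times as often as Alas2 in libraries 1, 2 and 3, without regard to length. Per kilobase of annotated exons the ratio of their levels was 1.55 ± 0.445, and per kilobase of the longest transcript it was 2.39 ± 0.685 (SD, n = 3). On the log2 scale per exon kilobase, Alas1 lay 0.55 above Alas2 (SD 0.38), higher in 3 of 3 libraries, with an exact two-sided sign-flip permutation p of 0.25, which is the minimum for 3 values, and an adjusted p of 0.562 (Benjamini-Hochberg, 9 gene pairs). The per-kilobase ranges of the 2 genes overlapped, from 5.28 to 8.47 CPM per kilobase for Alas1 and from 3.82 to 6.22 for Alas2.

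The exons of Alas2 overlap other annotated genes over 15.5% of their bases, mostly Apex2 on the opposite strand, and those of Alas1 over 7.53%, where an antisense gene lies. Reads there could have been lost or misassigned, as the strand setting of the counting is not given in the sources used here.

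Alad encodes the cytosolic enzyme that joins 2 molecules of aminolevulinate into a pyrrole. The gene (chromosome 4, 62509169 to 62519918) had 514, 608 and 634 counts, or 16.7, 24.2 and 21.1 CPM in libraries 1, 2 and 3, and a mean of 20.7 ± 3.76 CPM. Library 1 was lowest, as for the synthases. The enzyme that acts on its product is not described here.

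Uros encodes uroporphyrinogen III synthase, which closes the ring in the isomer that leads to haem. The gene (chromosome 7, 133686243 to 133710072) had 138, 265 and 326 counts, or 4.49, 10.6 and 10.9 CPM in libraries 1, 2 and 3, a mean of 8.64 ± 3.59 CPM. It also had the widest spread, 2.42-fold between the highest and the lowest library. Libraries 2 and 3 lay close together and library 1 well below them.

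Of the 9259 other genes averaging 10 CPM or more, those nearest to Uros by Euclidean distance of centred log2(CPM + 0.5) over the 3 libraries were Cebpa, Creld2, Mrto4, Rrp15 and Guk1, at distances of 0.017 to 0.058. Cebpa, the gene of a myeloid transcription factor, had 10.1, 23.2 and 24.1 CPM in libraries 1, 2 and 3. Such likeness rests on 3 values per gene, and 43 of the 9259 genes lay within a distance of 0.2 of Uros. How common it is for other genes was not computed.

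Urod and Cpox encode the enzymes that trim the side chains of the ring, in the cytosol and in the space between the mitochondrial membranes. Urod (chromosome 4, 116989965 to 116994413) had 1018, 584 and 939 counts, or 33.1, 23.3 and 31.3 CPM in libraries 1, 2 and 3 (29.2 ± 5.24 CPM). Cpox (chromosome 16, 58670292 to 58717636) had 1265, 861 and 1345 counts, or 41.2, 34.3 and 44.8 CPM (40.1 ± 5.32 CPM). Library 2 was the lowest for both, unlike the earlier enzymes, whose low library was library 1.

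Ppox encodes the oxidase that turns protoporphyrinogen into protoporphyrin. The gene (chromosome 1, 171275990 to 171281186) had 949, 567 and 480 counts, or 30.9, 22.6 and 15.98 CPM in libraries 1, 2 and 3, with a mean of 23.2 ± 7.47 CPM. It was the only one of the 9 to be lowest in library 3, and library 1 was its highest. B4galt3 on the opposite strand overlaps 17.5% of its exon bases, the largest such share among the 9 genes, so its count is uncertain.

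Fech encodes ferrochelatase, which places iron into the ring. The gene (chromosome 18, 64452914 to 64490251) had 924, 739 and 1151 counts, or 30.1, 29.4 and 38.3 CPM in libraries 1, 2 and 3, and a mean of 32.6 ± 4.95 CPM. Libraries 1 and 2 were close and library 3 higher, and the spread of 1.30-fold was the smallest of the 9 genes under this scaling, just under that of Cpox at 1.31-fold.

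Tfrc, whose product carries transferrin-bound iron into the cell, had the highest level per length of the 9 genes. The gene (chromosome 16, 32608920 to 32632794, ENSMUSG00000022797.16) had 3474, 4411 and 5462 counts, or 113, 176 and 182 CPM in libraries 1, 2 and 3, with a mean of 157 ± 38.1 CPM. Library 1 was low, and libraries 2 and 3 lay close together. None of its exon bases lies in an exon of another gene.

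**Figure D2:**
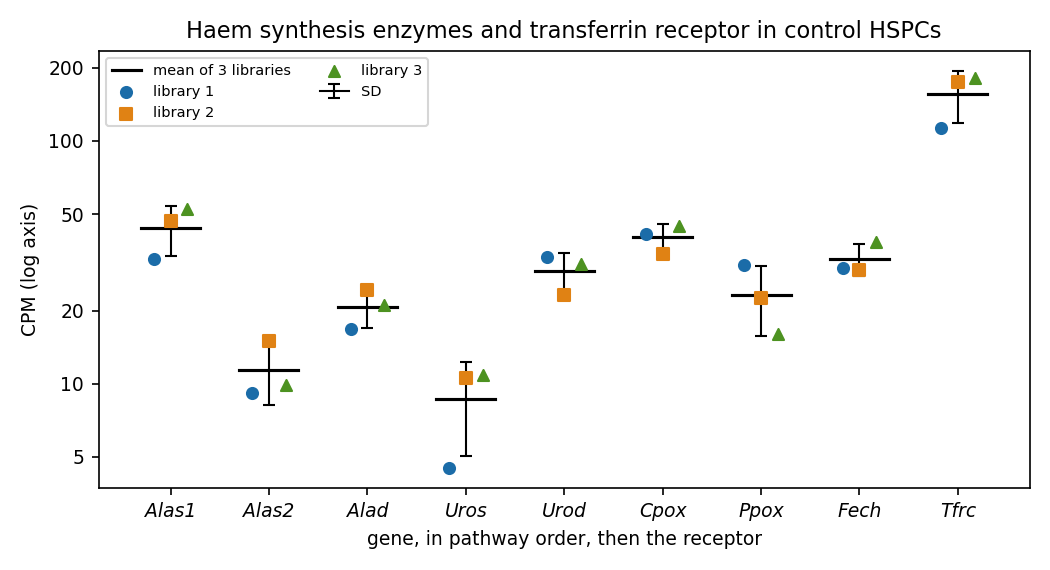
CPM (log axis) of the 8 enzyme genes in pathway order and of Tfrc in control HSPCs, with a point per library, a bar at the mean and error bars of 1 SD (n = 3). The means lie between 8.64 CPM for Uros and 157 CPM for Tfrc, with library 1 below the other libraries for Alas1, Alas2, Alad, Uros and Tfrc.

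CPM takes no account of length, so the order of the 9 genes was taken per length of annotated exons. In CPM per kilobase the order was Tfrc (25.4 ± 6.15), Urod (11.3 ± 2.02), Alad (11.1 ± 2.01), Alas1 (7.11 ± 1.65), Cpox (6.02 ± 0.799), Ppox (5.13 ± 1.65), Alas2 (4.72 ± 1.31), Uros (2.41 ± 1.00) and Fech (2.36 ± 0.358). Of the 8 steps in this order, 3 were free of overlap between libraries. These were Tfrc over Urod by 1.13 on the log2 scale (SD 0.58), Alad over Alas1 by 0.67 (SD 0.20) and Alas2 over Uros by 1.01 (SD 0.54), each higher in 3 of 3 libraries with an exact permutation p of 0.25, the smallest possible, and 0.562 after adjustment over 9 pairs. The other neighbours overlapped, namely Urod with Alad, Alas1 with Cpox, Cpox with Ppox, Ppox with Alas2 and Uros with Fech. The order was taken from these same 3 libraries, which set the direction of each step, so the p-values of the steps are no independent test.

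The order depended on the length used. Per kilobase of the longest transcript, Tfrc and Urod kept the first places, with Tfrc at 32.1 ± 7.78 and Urod at 19.6 ± 3.52 CPM per kilobase, and Alad came after Cpox and Alas1 at 11.7 ± 2.13, just below Alas1 at 12.9 ± 2.99. On that scale Fech, with 13838 bases of annotated exons but 6571 in its longest transcript, lay at 4.96 ± 0.754 and above Uros at 3.94 ± 1.64.

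**Figure D3:**
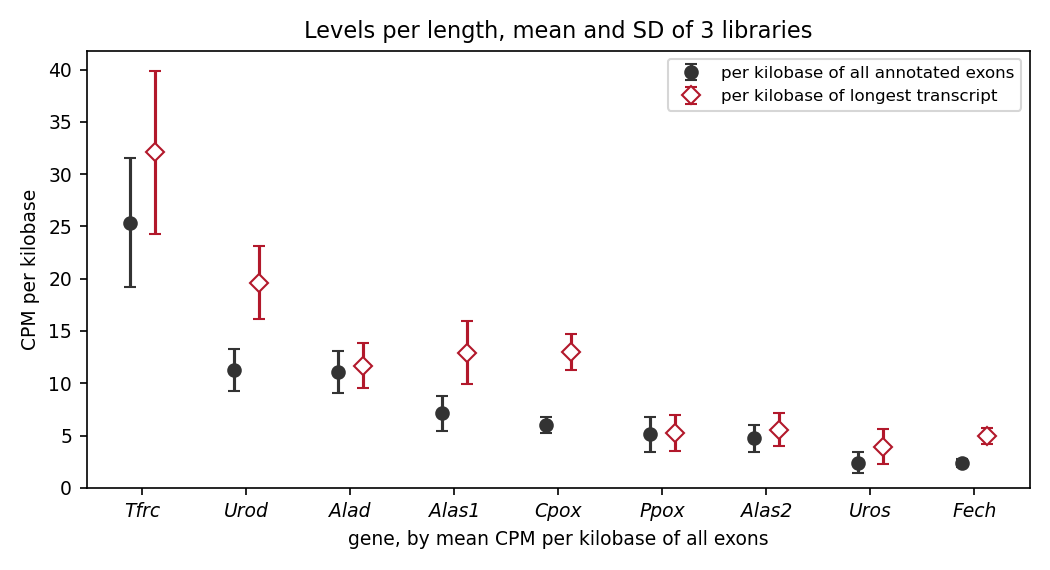
Level per length (CPM per kilobase, axis from 0) of the 9 genes, as mean and SD of the 3 control libraries, for all annotated exons (filled circles) and for the longest transcript (open diamonds). Tfrc is highest on both scales, at 25.4 and 32.1, while Alad lies above Alas1 and Cpox for all exons and below them for the longest transcript.

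All 9 genes differed between the libraries beyond read-counting noise, by a chi-square test with Benjamini-Hochberg adjustment over 12965 genes, but so did 82.6% of all genes tested. The largest statistic was that of Tfrc (adjusted p = 1.65e-119) and the smallest that of Cpox (adjusted p = 1.65e-08). This test takes each read as independent, which amplified reads are not. Without library 1, 7 of 9 passed it (not Uros or Tfrc), against 51.4% of all genes. Without library 2, 7 of 9 passed (not Alas2 or Urod), against 67.3%, and without library 3, 8 of 9 (not Fech), against 64.4%.

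None of the 9 passed the test for more variation than genes of similar abundance have. In edgeR's quasi-likelihood fit, 0 of 9 passed an adjusted p of 0.05, where 0.00771% of all genes did (Elane alone, named after its values were seen), and the adjusted p was 0.983 for each of the 9. At an unadjusted p under 0.05 edgeR, which fits across all genes and is not an exact test, gave 2 of 9, Tfrc (p = 0.0144) and Ppox (p = 0.0376), against 4.57% of all genes. DESeq2 marked 30 of 12965 genes as dispersion outliers and none of the 9. On simulated counts the edgeR test recovered 38% of genes changed 2-fold in 1 library and 86% of those changed 4-fold. The 9 genes spread 1.30-fold to 2.42-fold, so 0 of 9 does not show that their variation is ordinary.

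As plain folds, 5 of 9 genes spread more than 1.5-fold between the highest and lowest library, namely Uros (2.42), Ppox (1.93), Alas2 (1.63), Tfrc (1.61) and Alas1 (1.61). The share over all genes was 28.2%, and 17.8% over genes of at least 5 CPM, a level that all 9 reached. The median fold was 1.61 for the 9 genes and 1.29 for all genes tested. Without library 1 only Alas2 stayed past this fold (1 of 9, where 11.7% of all genes did), without library 2 there were 4 of 9 (all genes 19.1%), and without library 3 there were 3 of 9 (all genes 17.9%). Scaled to spike-in totals, an alternative chosen after seeing the data, 8 of 9 did, as did 97.6% of all genes.

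Library 1 was the lowest library for 5 of 9 genes (Alas1, Alas2, Alad, Uros and Tfrc), where it was lowest for 44.3% of all genes tested. Library 3 was the highest for 5 of 9 (Alas1, Uros, Cpox, Fech and Tfrc), against 32.5% of all genes. The sums of the mature erythroid markers had the same low library, at 51.5 CPM in library 1 against 104 and 149.8 CPM in libraries 2 and 3, and the part of such cells in the member values was not tested. Car1 made most of that difference, and the other 11 markers summed to 35.3, 42.7 and 51.2 CPM in libraries 1, 2 and 3, an alternative chosen after seeing the data. Haemoglobin genes, the defining products of that lineage, were at 0 counts in every library for all 5 listed, which allows from 0.0977 to 0.120 CPM per gene (3 counts, counting error only). Several haemoglobin genes have near-identical copies, so these zeros are uncertain.

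**Figure D4:**
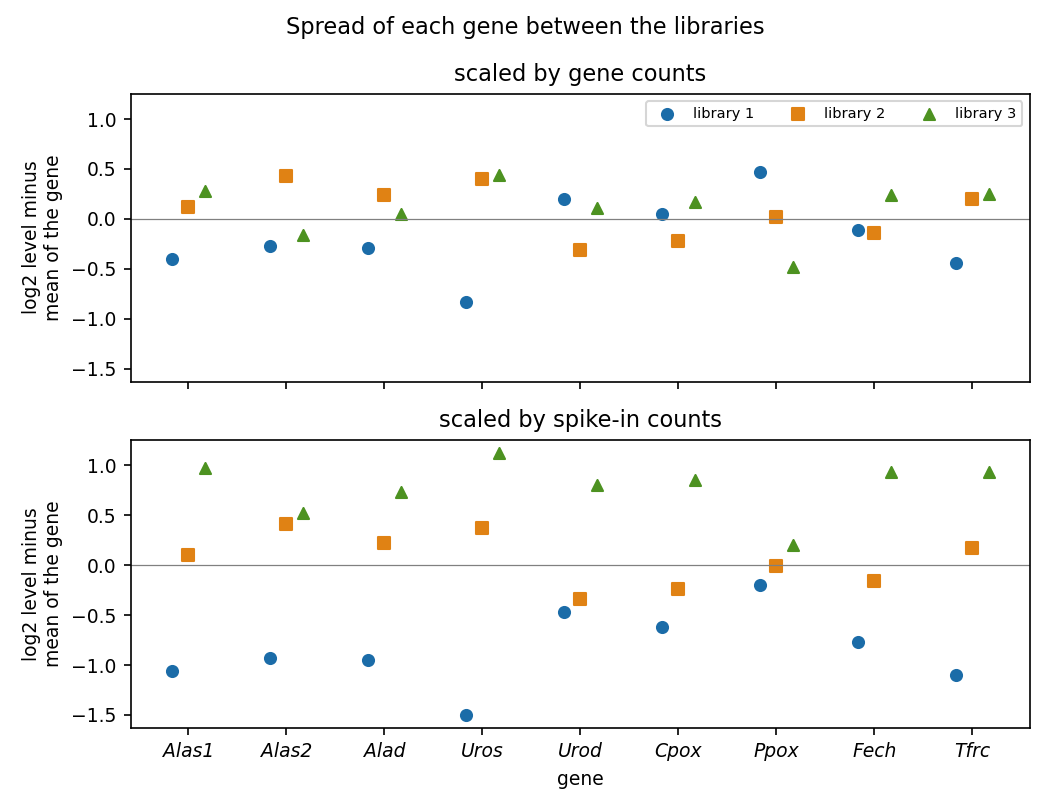
Log2 level of each gene in each library minus the gene's mean over the 3 control libraries, with CPM on gene counts (upper panel) and with totals of spike-in counts (lower panel). On gene counts library 1 is the lowest for 5 of 9 genes, against 44.3% of all genes. On spike-in counts it is the lowest for all 9, with folds of 1.32 to 6.16 between the highest and lowest library. The spike-in scaling shifts every gene of a library by the same factor, and the share of all genes lowest there was not computed.

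Genes that handle iron around the transferrin receptor were expressed. In this and the following lists, highest and lowest refer to CPM, which takes no account of gene length. All 16 of the iron uptake and storage list reached 1 CPM, with a median of 58.7 CPM. The most counted were the ferritin heavy chain gene Fth1 at 494 ± 66.5 CPM, Ncoa4, the receptor that delivers ferritin to lysosomes, at 436 ± 34.6 CPM, and the ferritin light chain gene Ftl1 at 301 ± 9.07 CPM. Both ferritin genes have processed pseudogenes, so their counts are uncertain. The lowest was Slc40a1, which encodes the iron exporter ferroportin, at 3.10 ± 0.704 CPM. Of the 16, 3 spread more than 1.5-fold, against 28.2% of all genes.

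Some of these genes, named after their values were seen, bear directly on the receptor. Trf, the transferrin gene, was at 65.9 ± 8.05 CPM and Tfr2, which encodes the second transferrin receptor, at 57.5 ± 5.44 CPM. Steap3, whose product reduces iron freed from transferrin, had 7.26, 16.9 and 22.9 CPM in libraries 1, 2 and 3. Library 1 was the lowest for 9 of the 16 listed genes, against 44.3% of all genes, while others such as Slc39a14 and Pcbp2 were highest there. Slc11a2, the endosomal iron exporter gene, lay at 32.8 ± 5.05 CPM, and the genes of the iron regulatory proteins, Ireb2 and Aco1, at 128 ± 15.1 and 27.8 ± 6.25 CPM.

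All 13 genes of mitochondrial import and porphyrin transport reached 1 CPM, with a median of 26.1 CPM. Slc25a37, which encodes mitoferrin 1, the mitochondrial iron importer of erythroid cells, lay at 176 ± 7.77 CPM, with 170.4, 185 and 172 CPM in libraries 1, 2 and 3. Snx3, which helps recycle the transferrin receptor, was at 59.3 ± 2.80 CPM. The lowest was Abcb6, a porphyrin transporter gene, at 4.26 ± 1.78 CPM. Library 1 was the lowest library for 10 of the 13, against 44.3% of all genes. In the other lists of the pathway it was lowest for 4 of 7 export, breakdown and sensing genes, 5 of 12 iron-sulphur genes, 6 of 9 haem users, 3 of 6 supply genes, 3 of 4 Alas1 regulators and 4 of 7 erythroid regulators.

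Glycine and succinyl-CoA supply genes were all above 1 CPM (6 of 6, median 74.6 CPM), led by Ogdh of the citric acid cycle at 216 ± 19.7 CPM, the succinyl-CoA ligase gene Suclg2 at 113 ± 9.57 CPM and Shmt2, the mitochondrial serine hydroxymethyltransferase gene, at 113 ± 7.44 CPM, with Shmt1 lowest at 20.6 ± 2.99 CPM. All 12 iron-sulphur assembly genes passed 1 CPM (median 29.0 CPM). Their chaperone gene Hspa9 lay at 242 ± 35.3 CPM, the cochaperone gene Hscb at 77.5 ± 7.98 CPM and Isca2 at 45.6 ± 2.79 CPM, with Iba57 lowest at 5.09 ± 1.21 CPM. Ferrochelatase itself carries such a cluster.

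Genes that use, export, break down or sense haem were expressed as well. Of 9 haem users all reached 1 CPM (median 72.8 CPM), with the catalase gene Cat at 249 ± 20.8 CPM, the cytochrome c gene Cycs at 121 ± 30.9 CPM and Cyba, a subunit of the phagocyte oxidase, lowest at 8.97 ± 0.333 CPM. The myeloperoxidase gene Mpo, a haem enzyme of granulocyte precursors, was at 683, 1544 and 2403 CPM in libraries 1, 2 and 3, and so lowest in library 1 like Tfrc and Alas1. Of 9 export, breakdown and sensing genes, 7 were measured and all 7 reached 1 CPM (median 22.1 CPM). The haem transporter gene Slc48a1 was at 72.8 ± 3.33 CPM, the haem-regulated kinase gene Eif2ak1 at 69.5 ± 3.54 CPM and Bach1, which encodes a haem-sensing repressor, at 41.6 ± 4.11 CPM. Hmox1, the inducible haem oxygenase gene, was lowest at 5.88 ± 1.38 CPM.

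Known regulators of both synthases were expressed. Of those listed for Alas1, Nrf1, which encodes nuclear respiratory factor 1, was at 53.2 ± 3.97 CPM, Nr1d1, a haem-binding clock repressor gene, at 12.8 ± 1.01 CPM, and the coactivator genes Ppargc1b and Ppargc1a at 9.59 ± 3.43 and 8.52 ± 1.43 CPM. Of the 7 erythroid regulators, all at 1 CPM or more with a median of 39.2 CPM, Tal1 lay at 148 ± 9.95 CPM, Nfe2 at 112 ± 6.50 CPM, Ldb1 at 104 ± 9.63 CPM and Epor, the erythropoietin receptor gene, lowest at 3.96 ± 0.978 CPM.

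Gata1, the erythroid activator of Alas2, had 2.83, 8.57 and 5.56 CPM in libraries 1, 2 and 3, and was named after its values were seen. It was highest in library 2 and lowest in library 1, as were Alas2, Nfe2 and Epor. Library 1 was the lowest for 44.3% of all genes tested, and the share with both traits was not computed. Nfe2 was nearly level in libraries 1 and 3, at 108 and 109 CPM. Other erythroid regulators differed from the order of Gata1. Tal1 had 159, 145 and 140.3 CPM in libraries 1, 2 and 3, Ldb1 and Zfpm1 were also highest in library 1, and Klf1 was highest in library 3. Of the 12 measured mature erythroid markers 7 reached 1 CPM, led by Car1 at 58.8 ± 41.3 CPM, the surface protein gene Ermap at 21.4 ± 8.48 CPM and Rhag at 7.38 ± 2.81 CPM. The median over all 12 was 2.59 CPM, which depends on the uncertain zeros of the 5 haemoglobin genes. Slc4a1, the anion exchanger of red cells and likewise named after its values were seen, was highest where Alas2 was lowest, with 13.2, 1.43 and 2.46 CPM in libraries 1, 2 and 3.

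Markers of other blood cells were measured beside these genes. All 6 neutrophil genes reached 1 CPM, led by Ngp at 43.2 ± 33.3, S100a9 at 23.1 ± 12.8 and Lcn2 at 16.2 ± 10.3 CPM, with Camp at 2.68 ± 1.37 CPM. The 4 B cell genes, from Cd79b at 24.6 ± 2.63 CPM to Ms4a1 at 1.37 ± 1.08 CPM, summed to 43.7, 46.8 and 46.1 CPM in libraries 1, 2 and 3. The 4 T cell genes were all under 1 CPM, and of 4 macrophage genes 2 reached it, Vcam1 at 5.02 ± 1.35 CPM and C1qb at 1.67 CPM. Their part in the member values was not tested.

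**Figure D5:**
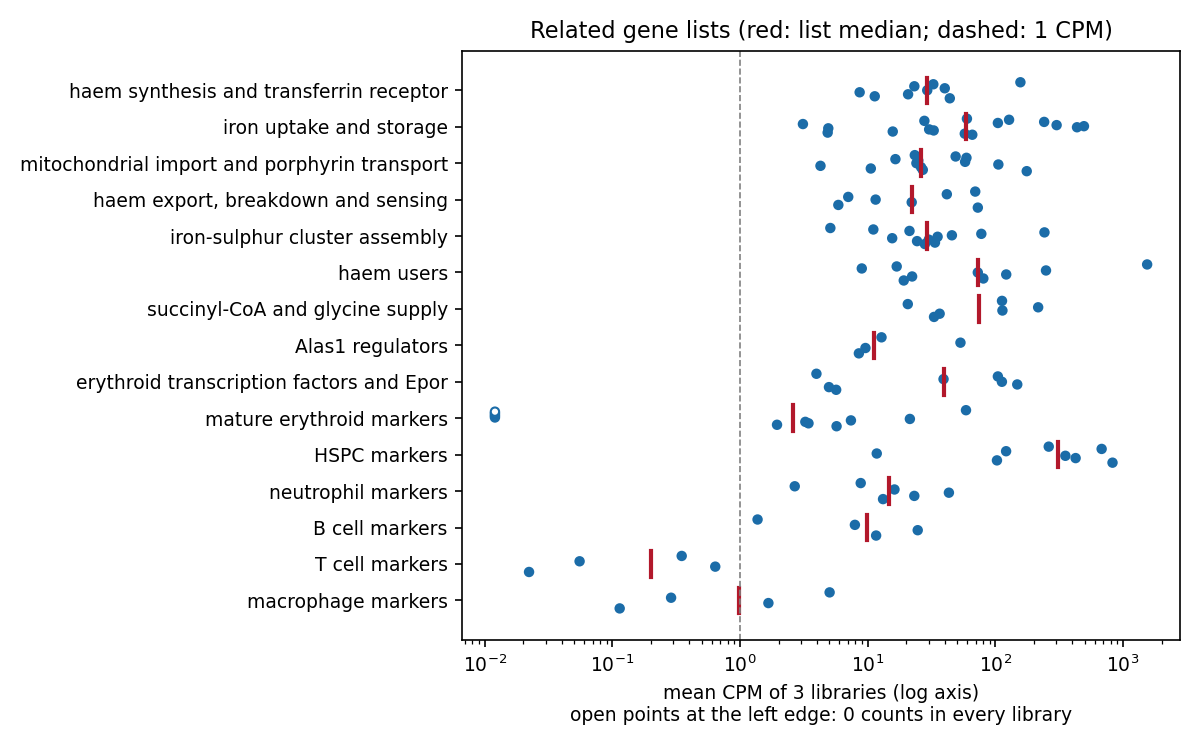
Mean CPM over the 3 control libraries (log axis) of each gene in the described set and in each related list, with red bars at list medians and a dashed line at 1 CPM. The described set has a median of 29.2 CPM and no gene under 1 CPM. The 12 mature erythroid markers have a median of 2.59 CPM, which depends on the uncertain zeros of 5 haemoglobin genes at 0 counts.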

How the data were processed

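For each library the authors deposited a table of unnormalized counts by gene symbol. TopHat2 2.0.9, HTSeq and DESeq2 appear in the submitters' processing notes, with mm10 as the build. Neither the gene model nor the strand handling is given in the sources used here. Per the labels' protocols, 10 ng of RNA was made into amplified cDNA by poly(A) and random priming, so counts are not independent molecules. Each file lists 24421 gene symbols, 92 spike-in entries and 5 HTSeq category entries, and the spike-in and category entries were left out of totals and tests (spike-ins were 1.48%, 0.954% and 0.582% of gene counts). The gene-row totals were 30718562, 25097769 and 30032593.

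CPM was computed on gene-row totals, and logs were taken after adding 0.5 CPM, a pseudocount that shrinks differences between low values. Exon lengths, positions and overlaps came from GENCODE M21 (GRCm38, the assembly of mm10), which held 95.7% of the symbols, and promoters from RefSeq (GRCm38.p6), matched by symbol for 8 of 9 members (not Fech). The chi-square test (2 degrees of freedom) and edgeR's quasi-likelihood variability test (intercept only, robust, TMM) covered the 12965 genes averaging 1 CPM or more, with p-values adjusted by the Benjamini-Hochberg method. Pairs of genes were compared by exact two-sided sign-flip permutation tests over 3 libraries. The edgeR variability test was also run on simulated counts with some genes changed in 1 library, and it gave 1 false call.

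The members and gene lists were chosen with earlier results of these data known. The naming rule took all members, the 3 highest and the lowest gene of each list by CPM, list genes past the variability test (none), and the 5 genes most like the member of widest log2 range. A gene that this rule names is not reported here. Flvcr1, Flvcr2 and Epb42 were listed but are not analysed here. Alternatives were TMM and DESeq2 scaling, totals without Rn45s, spike-in totals (chosen after seeing the data), other pseudocounts, minima and lengths, and leaving out each library. A protein comparison of Alas1 and Alas2 was planned but not run. Software was R 4.3.3, edgeR 4.0.16, DESeq2 1.42.0, Python 3.11.15, NumPy 2.4.6, SciPy 1.17.1 and pandas 2.3.3.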

Additional observations from a re-analysis of the deposited data

Results flagged for a closer look

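Spike-in RNA, which is left out of the gene totals and was used above only as an alternative scaling, was counted 455900, 239355 and 174913 times in libraries 1, 2 and 3. It was flagged because these entries hold signal outside the main measurement. Gene counts per spike-in count were 67.4, 105 and 172 in libraries 1, 2 and 3. Scaled to spike-in totals, Tfrc was at 77.2, 187 and 317 and Fech at 20.5, 31.3 and 66.7 in the same libraries. All 9 genes were then lowest in library 1 and highest in library 3. This scaling shifts every gene of a library by the same factor, and it raises library 3 over library 1. The share of all genes with that order was not computed, so the order cannot be called a trait of the 9. Spread over 1.5-fold under this scaling was found for 97.6% of all genes.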

How the results depend on the processing

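Of the alternative values of the main results, 275 were unchanged, 19 moved and 13 reversed. Unchanged meant within 1 SD for levels and list medians, the same sign for order, and within 1.5-fold for counts of genes. Member levels moved by more than 1 SD only under spike-in totals, chosen after seeing the data, for Alas1 (54.4), Alad (24.6), Cpox (47.5) and Fech (39.5), all in CPM scaled to the mean spike-in total. There, 12842 of 13153 genes and 8 of 9 members spread over 1.5-fold. The order per length reversed for neighbours. With longest transcripts the log2 difference was -0.11 for Alad minus Alas1, -0.024 for Alas1 minus Cpox, -0.13 for Ppox minus Alas2 and -0.36 for Uros minus Fech, and without length it was -1.06 for Alad minus Alas1 and -1.94 for Uros minus Fech, since these settings change the lengths. With a pseudocount of 0.1, Uros minus Fech was -0.047. Leaving out each library gave -0.22 to 0.29 for Urod minus Alad, -0.061 to 0.46 for Cpox minus Ppox, -0.29 to 0.27 for Ppox minus Alas2 and -0.24 to 0.35 for Uros minus Fech. It also gave 6660 to 8709 genes past the chi-square test, 1 to 16 past the edgeR variability test, 1519 to 2473 genes and 1 to 4 members spread over 1.5-fold, and a median of 71.7 to 74.7 CPM for the glycine and succinyl-CoA list. Without a minimum, 16 genes passed the variability test, and DESeq2 marked 30. At a minimum of 5 CPM, 1895 genes spread over 1.5-fold, and 4 mature erythroid and 1 macrophage marker reached it. Where no construction is named, the cause was not tested. No paired analysis was possible because there is 1 group. With 3 libraries, exact tests cannot go below p = 0.25, and the floor of 3 counts lies between 0.0977 and 0.120 CPM.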
